A study of Mus musculus with 2 samples.

Results

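The cytosolic ribosomal protein genes are the genes for the protein building blocks of the ribosome, the machine that reads messenger RNA and makes protein in the cytoplasm. They were picked by symbol alone: Rpl or Rps followed by digits and an optional a, x, l or y, plus Rplp0, Rplp1, Rplp2 and Rpsa, with pseudogene symbols left out. The rule found 78 of the 19575 genes in the count table: 42 of the large subunit, 30 of the small subunit, 3 of the stalk and 3 paralogs whose symbols end in l (Rpl3l, Rpl6l and Rps27l).

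The data were single-nucleus RNA counts from dorsal lumbar spinal cord (segments L3 to L5) of adult mice of either sex. All mice carried 1 copy each of Pdyn-IRES-Cre and of R26-LSL-Sun1.eGFP, so that cells that had at any time used the prodynorphin promoter kept a green nuclear envelope, and nuclei were sorted on that fluorescence. The naive library pooled 8 littermate controls that had only been given isoflurane at postnatal day 3, and the injured library pooled 8 mice whose left plantar hindpaw had been incised at postnatal day 3. Each group was thus 1 library, the mice within a pool could not be told apart, and no test between injured and naive was possible: all intervals below are 95% intervals of counting error only. A unique molecular identifier (UMI) marks 1 captured RNA molecule, and these UMIs were not independent samples of mice.

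A ribosome has a small subunit, which holds the messenger RNA and decodes it, and a large subunit, which joins the amino acids. The large subunit carries a stalk of acidic P proteins on the base protein Rplp0, where elongation factors dock. Cells need the subunit proteins in matched amounts, and most of their messenger RNAs begin with an oligopyrimidine tract (TOP) through which growth signals control their translation. Counts from nuclei can hold RNA inside the nucleus and RNA of cytoplasm around it, which were not told apart here. The levels are those of RNA and not of ribosomes or proteins. Many ribosomal protein genes also have near-identical processed pseudogene copies in the genome. How reads shared with such copies were counted is not given in the sources used here, and the level of every gene below is uncertain to that extent.

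RefSeq promoter windows (GRCm38.p6) were found for 57 of the 78 genes, 69 windows in all, since 10 genes had several. A TOP tract, taken as a C and at least 4 further pyrimidines on the gene's strand that start within 5 bases of the window's start base, was present in at least 1 window of 28 of these 57 (49.1%), against 21.2% of 27025 genes with a window. With only the first window listed for each gene it was 27 (47.4%) against 18.5%. The start base is that of the RefSeq table. It was the outermost start of the gene in 60.4% of all windows, and it lay within 5 bases of a GENCODE vM21 transcript start in 32 of the members' 69 windows, so that the counts of tracts depend on the starts chosen. The 4 sequences that follow belong to genes among the lowest in the injured library, and the 4 after them to genes near or above equality. Each runs 5′ to 3′ from 15 bases before the RefSeq start base through the first 15 bases from it, with the tract in capitals. GENCODE extends Rps10 by 1425 and Rps24 by 3553 bases upstream of the starts shown, and its nearest transcript starts lie 0 and 3 bases from them. Those of Rpl14 and Rps27l lie 3 and 0 bases away. For Rpl28 (25 bases), Rpl35 (9), Rpl7a (10) and Rplp2 (18) no GENCODE transcript start lies within 5 bases of the start shown.
Rps10, chr17:27635230-27635259, minus strand: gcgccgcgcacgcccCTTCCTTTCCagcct
Rps24, chr14:24490663-24490692, plus strand: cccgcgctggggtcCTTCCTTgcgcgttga
Rpl28, chr7:4792950-4792979, plus strand: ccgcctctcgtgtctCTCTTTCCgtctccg
Rpl14, chr9:120571502-120571531, plus strand: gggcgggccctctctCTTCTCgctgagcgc
Rpl35, chr2:39005117-39005146, minus strand: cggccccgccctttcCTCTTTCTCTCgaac
Rpl7a, chr2:26910792-26910821, plus strand: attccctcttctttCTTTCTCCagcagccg
Rplp2, chr7:141447636-141447665, plus strand: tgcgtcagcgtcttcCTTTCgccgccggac
Rps27l, chr9:66946071-66946100, plus strand: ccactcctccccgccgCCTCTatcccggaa
All sequences shown were taken from genes with such a tract, so they cannot tell whether the sides of the comparison differ in it. Rplp0, Rpl36a and Rpsa, also among the lowest in the injured library, had windows without a tract. So had Rps12, Rpl10 and Rps13, which were near equality. The sequence CCGGAAG, the core that ETS factors bind, stood on either strand in the 300-base windows of 42.1% of the members and of 9.93% of all genes. GCCATC, a core of the YY1 site, stood in 24.6% against 15.9%, and TATAAA in 10.5% against 15.7%. These are matches of letters and not measured binding.

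The naive library held 4063 nuclei with 30602222 UMIs (median 6955 per nucleus), and the injured library 3547 nuclei with 32934588 UMIs (median 8464). 3 cell barcodes occurred in both. Clusters, built without any ribosomal protein gene among the genes that formed them, gave 2608 naive and 2204 injured inhibitory neuron-like nuclei, named from GABA and glycine genes such as Gad1, Gad2 and Slc32a1. Another 892 and 781 nuclei were excitatory neuron-like, named from Slc17a6. Among the markers of excitatory neurons, Ebf1 was higher in the inhibitory-like class (3017 against 967 CPM in the naive library), so it did not separate the classes. Smaller classes were CSF-contacting neuron-like (106 and 48), astrocyte-like (54 and 47) and oligodendrocyte-like nuclei (42 and 45), and 361 and 422 nuclei stayed unnamed. CPM, counts per 1000000, are UMIs of a gene over all UMIs of the same class and library, times that number. They are not divided by gene length, so levels are compared below within a gene and not between genes.

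Ribosomal protein RNA was a smaller part of the injured library in every class. In inhibitory-like nuclei the 78 genes together took 0.208% of UMIs (0.206% to 0.210%) in the naive library and 0.152% (0.150% to 0.153%) in the injured one, which gives a ratio of 0.729 (0.718 to 0.741). Excitatory-like nuclei gave 0.196% (0.193% to 0.200%) and 0.143% (0.140% to 0.146%), a ratio of 0.728 (0.711 to 0.745). The intervals of the 2 libraries did not overlap in either class.

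CSF-contacting neuron-like nuclei stood at 0.281% (naive) and 0.204% (injured). Oligodendrocyte-like nuclei stood at 0.240% and 0.175%. Astrocyte-like nuclei had the highest naive share of the named classes, 0.334% (0.307% to 0.363%). Their injured share was 0.198% (0.182% to 0.216%), and the ratio 0.593 (0.525 to 0.670). Their median depth had the largest ratio between libraries of all classes, 1.61 (2175 UMIs per nucleus in the naive pool and 3503 in the injured pool), and the share from mitochondrially encoded genes was 0.543 times the naive one. The part of either in the astrocyte-like ratio was not tested. In the unnamed nuclei the ratio was 0.790 (0.764 to 0.818), the nearest to 1 of all classes, while their mitochondrially encoded share was 1.71 times the naive one.

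**Figure D1:**
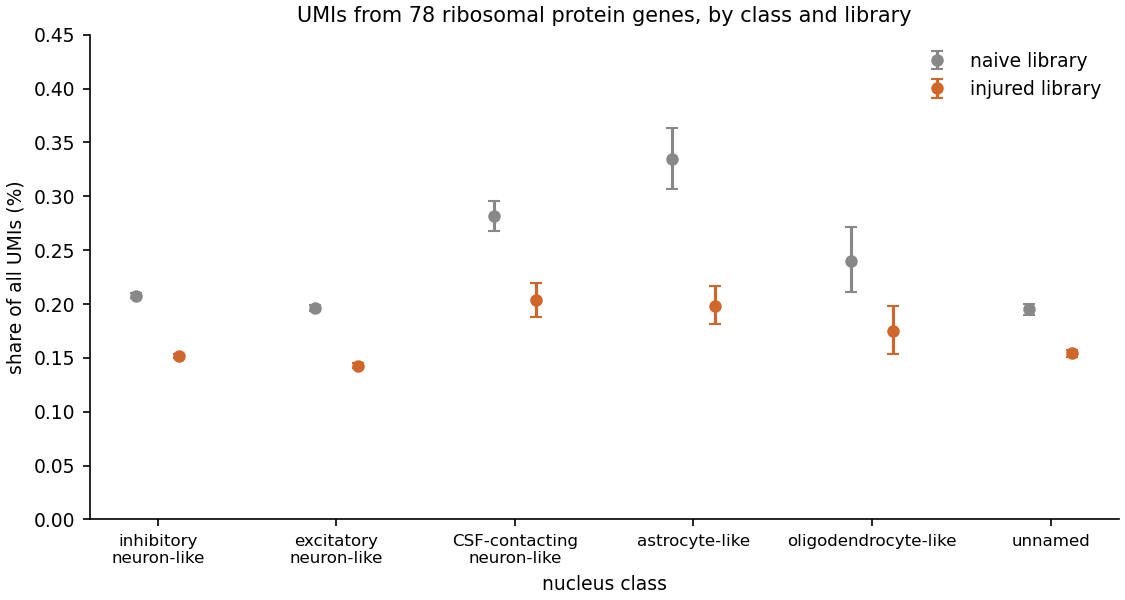
Share of all UMIs (%) that came from the 78 ribosomal protein genes (vertical axis) in each nucleus class (horizontal axis) and library (grey naive, orange injured). Points are shares of summed UMIs and bars exact binomial 95% intervals. In each of the 6 classes the injured point lies below the naive one, and the astrocyte-like pair is the widest apart (0.334% and 0.198%).

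Seen per nucleus, the numbers behind these shares were small. The median inhibitory-like nucleus held 14 ribosomal protein UMIs (naive) or 12 (injured), and the median excitatory-like nucleus 16 and 15, although the injured nuclei were sequenced deeper. With each nucleus thinned to 2000 UMIs (11 naive and 8 injured inhibitory-like nuclei were shallower and left out), the mean was 4.27 UMIs in naive and 3.15 in injured inhibitory-like nuclei. The share of thinned inhibitory-like nuclei without any ribosomal protein UMI was 1.93% and 5.65%. Thinned excitatory-like nuclei gave means of 4.03 and 3.01 and shares without any of 3.14% and 7.18%. Without thinning, the median number of ribosomal protein genes detected in a nucleus was 12 and 11 in the inhibitory-like and 14 and 13 in the excitatory-like class.

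Gene by gene, the shift was broad and ran in 1 direction. Of the 78 genes, 77 had at least 100 UMIs over both libraries in inhibitory-like nuclei, and 73 of these had a ratio under 1, where 70.3% of all 12800 genes with that many UMIs did. A gene was called when its ratio was past 1.3-fold and the interval excluded 1. By that rule 46 of the 77 were called lower in the injured library, where the background was 7.52% of all genes, and 0 were called higher, where the background was 0.766%. The interval lay below 1 for 59 (25.4% of all genes) and above 1 for 0 (7.05%). The median log2 ratio was -0.44 over the ribosomal protein genes and -0.09 over all genes. In the excitatory-like class 69 genes had enough UMIs. Of these 67 were under 1 (66.3% of all 11088 genes), 46 were called lower (8.02% of all genes) and 0 were called higher (0.758%). The interval lay below 1 for 50 (17.3% of all genes) and above 1 for 0 (6.57%), and the median log2 ratio was -0.44 against -0.08 over all genes. These counts describe 2 libraries and have no replicate check. Of the 69 genes with enough UMIs in both classes, 66 were under 1 in both, and 40 were called lower in both. The same joint counts over all genes were not made, and both classes came from the same 2 libraries.

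**Figure D2:**
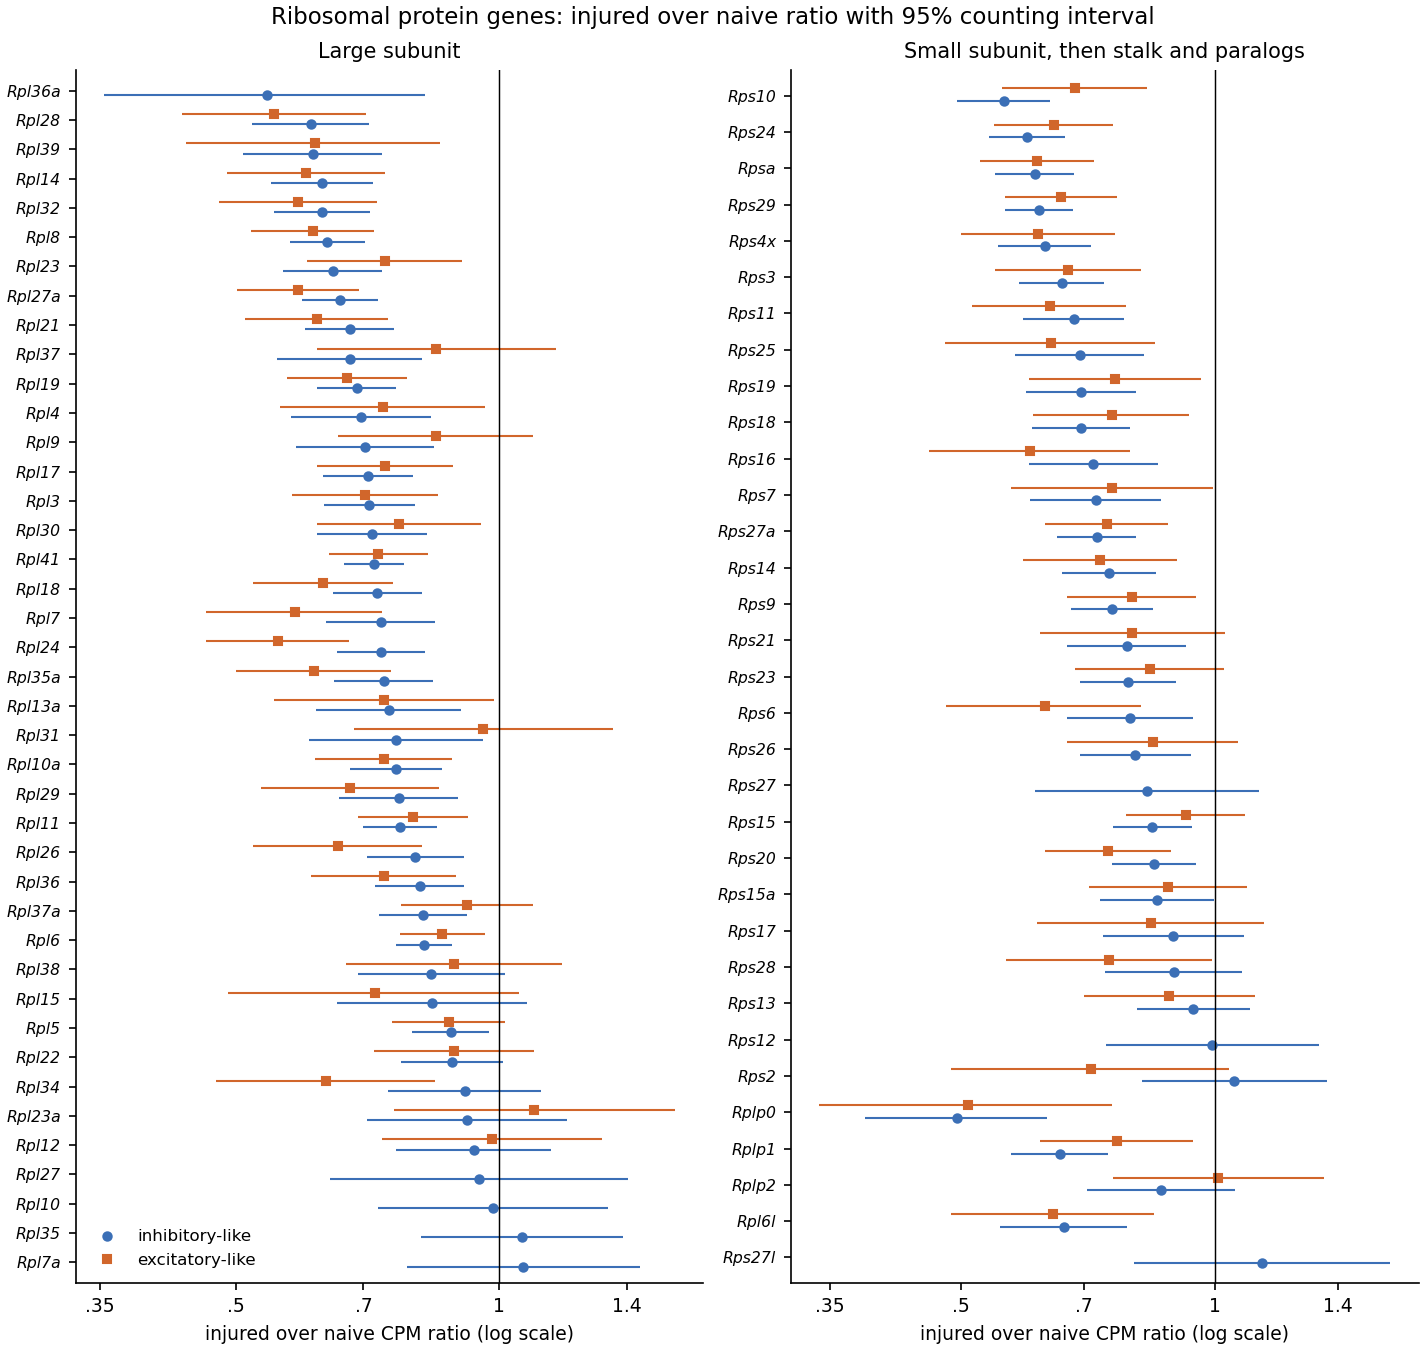
Injured over naive CPM ratio (horizontal, log scale) of each ribosomal protein gene (rows) in inhibitory-like (blue circles) and excitatory-like nuclei (orange squares), with exact 95% counting intervals. Only genes with at least 100 UMIs in a class have a point, and 3 members are not shown. Most points lie left of the line at 1, from Rplp0 at 0.495 to Rps27l at 1.14 in the inhibitory-like class.

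The 3 stalk genes differed among themselves. Rplp0, the base of the stalk, had the lowest ratio of all members in both classes. In inhibitory-like nuclei it stood at 10.7 CPM (9.25 to 12.3, 199 UMIs) in the naive library and 5.29 CPM (4.30 to 6.43, 100 UMIs) in the injured one, which gives a ratio of 0.495 (0.385 to 0.632). In excitatory-like nuclei it stood at 9.32 and 4.75 CPM (75 and 41 UMIs), a ratio of 0.510 (0.340 to 0.756). Rplp1, a P protein on that base, stood at 30.02 and 19.7 CPM in inhibitory-like nuclei, a ratio of 0.655 (0.573 to 0.748), and at 25.6 and 19.6 CPM in excitatory-like nuclei, a ratio of 0.765 (0.621 to 0.943). Rplp2, its partner in the P protein pair, stood at 11.4 and 9.83 CPM in inhibitory-like nuclei, a ratio of 0.864 (0.705 to 1.06). In excitatory-like nuclei Rplp2 stood at 11.9 and 12.1 CPM, a ratio of 1.01 (0.758 to 1.35). The intervals of Rplp0 and Rplp2 did not overlap in either class.

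Among the small-subunit genes 29 of 30 were under 1 in inhibitory-like nuclei and 17 were called lower, with a median log2 ratio of -0.42. Excitatory-like nuclei gave 28 of 28 under 1 and 19 called lower, with a median of -0.43. Rps10, a protein near the messenger RNA entry that is modified when ribosomes stall, was the lowest in inhibitory-like nuclei, with 36.7 CPM (34.0 to 39.5) for naive and 20.6 CPM (18.6 to 22.8) for injured nuclei, a ratio of 0.562 (0.495 to 0.637). Its excitatory-like levels were 30.6 and 20.9 CPM, a ratio of 0.683 (0.560 to 0.831). Rps24, a protein needed to process the precursor of the small-subunit RNA and mutated in some cases of Diamond-Blackfan anaemia, stood at 52.5 and 31.4 CPM in inhibitory-like nuclei (0.599, 0.540 to 0.664) and at 46.6 and 30.02 CPM in excitatory-like nuclei (0.644, 0.548 to 0.757). Rpsa, also known as the laminin receptor, stood at 48.0 and 29.4 CPM in inhibitory-like nuclei, a ratio of 0.612 (0.550 to 0.681), and at 51.2 and 31.5 CPM in excitatory-like nuclei, a ratio of 0.616 (0.526 to 0.720). For these 3 genes the naive interval lay wholly above the injured one in both classes.

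Rps29, a protein of the small subunit's head, had 62.7 and 38.8 CPM in inhibitory-like nuclei, a ratio of 0.619 (0.564 to 0.680), and was also called lower in excitatory-like nuclei, at 0.658. Rps6, the classic substrate of S6 kinase, was not among the called genes in inhibitory-like nuclei: it had 16.3 and 12.9 CPM, a ratio of 0.793 (0.668 to 0.942). In excitatory-like nuclei it had 17.9 and 11.2 CPM, a ratio of 0.628 (0.481 to 0.819), and was called lower. The 2 intervals overlap, and the difference between classes was not tested.

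At the other end of the small subunit, Rps2, which lies at the entry tunnel of the messenger RNA, had 6.66 and 7.03 CPM in inhibitory-like nuclei, a ratio of 1.06 (0.820 to 1.36). In excitatory-like nuclei it had 8.45 and 6.03 CPM, a ratio of 0.713 (0.487 to 1.04). Rps12 had 5.21 and 5.18 CPM in inhibitory-like nuclei, a ratio of 0.994 (0.743 to 1.33). Rps13 had 18.3 and 17.3 CPM, a ratio of 0.944 (0.808 to 1.10), and Rps28 had 12.9 and 11.6 CPM, a ratio of 0.894 (0.741 to 1.08). None of these 4 intervals excluded 1 in inhibitory-like nuclei. Rps28 was, however, called lower in excitatory-like nuclei, with a ratio of 0.750 (0.565 to 0.992). In excitatory-like nuclei the highest small-subunit ratios among genes with enough UMIs were at Rps15 (0.924, 0.785 to 1.09), a protein near the decoding site, and Rps13 (0.884, 0.700 to 1.12).

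The large subunit followed the same course, with 40 of 42 genes under 1 and 26 called lower in inhibitory-like nuclei (median log2 ratio -0.44), and 36 of 37 under 1 and 24 called lower in excitatory-like nuclei (median -0.46). Rpl28 had 23.6 CPM (21.4 to 25.9) in naive and 14.4 CPM (12.7 to 16.2) in injured inhibitory-like nuclei, a ratio of 0.610 (0.522 to 0.711). Its excitatory-like levels were 23.2 and 12.9 CPM, a ratio of 0.554 (0.434 to 0.704). Rpl14 had 30.5 and 19.1 CPM (0.627, 0.548 to 0.717) and Rpl32 34.3 and 21.5 CPM (0.628, 0.553 to 0.712) in inhibitory-like nuclei. In excitatory-like nuclei Rpl14 stood at a ratio of 0.602 and Rpl32 at 0.590 and both were called lower there as well.

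The next lowest genes of the excitatory-like class had less extreme ratios in the inhibitory-like class. Rpl24, which forms a bridge to the small subunit, had 37.5 and 21.0 CPM in excitatory-like nuclei, a ratio of 0.559 (0.462 to 0.674), and 0.734 (0.653 to 0.824) in inhibitory-like nuclei. Rpl7 had 24.6 and 14.4 CPM, a ratio of 0.584 (0.463 to 0.735), and 0.732 (0.634 to 0.845) in inhibitory-like nuclei. Rpl27a had 49.9 and 29.4 CPM, a ratio of 0.589 (0.502 to 0.691), and 0.658 (0.596 to 0.728) in inhibitory-like nuclei. For each of these 3 genes the intervals of the 2 classes overlapped, so no difference between classes can be read from them.

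Of the large-subunit genes near or above 1, Rpl35 had 6.01 and 6.39 CPM in inhibitory-like nuclei, a ratio of 1.06 (0.815 to 1.39), and Rpl7a had 4.56 and 4.86 CPM, a ratio of 1.07 (0.785 to 1.45). Rpl35 sits at the exit of the peptide tunnel. Rpl27 (3.01 and 2.85 CPM), Rpl12 (10.8 and 10.1 CPM), Rpl23a (6.55 and 6.02 CPM) and Rpl34 (11.2 and 10.3 CPM) had ratios of 0.949, 0.935, 0.920 and 0.914, all with intervals that include 1. In excitatory-like nuclei Rpl23a, a neighbour of the tunnel exit, had 7.08 and 7.76 CPM, a ratio of 1.10 (0.759 to 1.59), and Rpl12, a protein at the foot of the stalk, had 11.9 and 11.7 CPM, a ratio of 0.981 (0.735 to 1.31). Rpl31 (0.959) and Rpl37a (0.919) were the next highest, though Rpl31 was called lower in inhibitory-like nuclei (0.763, 0.606 to 0.958). Rpl34 differed in position between classes: its excitatory-like levels were 15.2 and 9.62 CPM, a ratio of 0.635 (0.474 to 0.846), with an interval that overlaps the inhibitory-like one.

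Rpl5 and Rpl11, which with a small ribosomal RNA form the particle that can hold the p53 regulator Mdm2 when ribosome assembly fails, were not called in either class. Rpl5 had 43.4 and 38.3 CPM in inhibitory-like nuclei, a ratio of 0.881 (0.796 to 0.975), and 46.6 and 40.8 CPM in excitatory-like nuclei, a ratio of 0.876 (0.755 to 1.02). Rpl11 had 49.5 and 38.2 CPM in inhibitory-like nuclei, a ratio of 0.771 (0.698 to 0.851), just short of the 1.3-fold limit, and a ratio of 0.798 (0.691 to 0.922) in excitatory-like nuclei. Rpl6, with the most UMIs of all members (1623 and 1354 in inhibitory-like nuclei), had 87.2 and 71.6 CPM, a ratio of 0.821 (0.763 to 0.883), so that a gene counted this well was still not past the fold. Rpl41, the shortest protein of the ribosome, had 80.4 and 57.9 CPM, a ratio of 0.720 (0.665 to 0.779), and was called lower in both classes.

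The 3 paralogs did not share 1 course. Rpl6l, with a span of 0.871 kb, is annotated as a processed pseudogene and not as a protein-coding gene, the only member of that type, so its counts and those of Rpl6 may be mixed. It had 17.7 and 11.7 CPM in inhibitory-like nuclei, a ratio of 0.662 (0.556 to 0.787), and 16.4 and 10.6 CPM in excitatory-like nuclei, a ratio of 0.643 (0.487 to 0.846). Rps27l, a p53-responsive relative of Rps27, had the highest ratio of the inhibitory-like class among members with at least 100 UMIs, 1.14 (0.803 to 1.62), from 3.44 and 3.91 CPM (64 and 74 UMIs). Its excitatory-like UMIs were 41 and 32. Its relative Rps27 had 5.21 and 4.33 CPM in inhibitory-like nuclei, a ratio of 0.832 (0.612 to 1.13). Rpl3l, which replaces Rpl3 in striated muscle, was near the counting limit, with 5 naive and 9 injured UMIs in inhibitory-like and 4 and 5 in excitatory-like nuclei. Rpl3 itself had 35.2 and 25.1 CPM in inhibitory-like nuclei, a ratio of 0.711 (0.631 to 0.802).

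Of the 4 X-linked genes, Rps4x had 33.3 and 20.9 CPM in inhibitory-like nuclei, a ratio of 0.629 (0.553 to 0.714), and 28.7 and 17.7 CPM in excitatory-like nuclei, a ratio of 0.618 (0.5004 to 0.761). Rpl39, at the peptide tunnel, had 16.6 and 10.2 CPM in inhibitory-like nuclei, a ratio of 0.613 (0.509 to 0.736), and a ratio of 0.615 (0.439 to 0.857) in excitatory-like nuclei. Rpl36a had 3.60 and 1.96 CPM in inhibitory-like nuclei (67 and 37 UMIs), a ratio of 0.544 (0.354 to 0.824). Its 15 and 18 excitatory-like UMIs gave no usable ratio (1.12, 0.533 to 2.39). Rpl10, which is needed to activate the new large subunit, had 91 UMIs in each library in inhibitory-like nuclei (4.89 and 4.81 CPM), a ratio of 0.984 (0.728 to 1.33). In excitatory-like nuclei it had 32 and 47 UMIs. The other genes under 100 UMIs in the excitatory-like class were Rpl35, Rps12, Rpl27, Rps27 and Rpl7a, together with Rpl3l, Rpl36a, Rpl10 and Rps27l named above.

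The spread of the ratios over the members exceeded that of counting. The SD of the log2 ratios over the 77 genes was 0.241 in inhibitory-like nuclei, and counting alone gave 0.129. In excitatory-like nuclei the SD was 0.232 over 69 genes, against 0.169. By the level of the gene, in inhibitory-like nuclei the median log2 ratio was -0.05 over the 6 members at up to 5 CPM, -0.12 over 7 at 5 to 10 CPM, -0.40 over 24 at 10 to 20 CPM, -0.49 over 36 at 20 to 50 CPM and -0.45 over 4 at 50 to 100 CPM. Other genes at the same levels had medians of -0.13, -0.15, -0.13, -0.10 and -0.06. In excitatory-like nuclei, where no member at up to 5 CPM had enough UMIs, the members' medians were -0.48 over 6 genes, -0.42 over 23, -0.51 over 37 and -0.44 over 3 in the next 4 levels. The 9 members under 100 UMIs in excitatory-like nuclei are not in these medians, and their ratios ran from 0.728 (Rps27l) to 1.37 (Rpl10). The order at the lowest levels thus cannot be compared between the classes. With and without a TOP tract the members' median log2 ratios were -0.34 (28 genes) and -0.46 (28) in inhibitory-like, and -0.48 (24) and -0.42 (24) in excitatory-like nuclei. The order of the 2 groups turned between classes.

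Ribosomal protein genes are short, and short genes as a whole were lower in the injured library. The members' annotated spans (GENCODE vM21, GRCm38) ran from 0.828 to 31.4 kb with a median of 3.33 kb, against 22.8 kb over all genes. In inhibitory-like nuclei other genes of up to 2 kb had a median log2 ratio of -0.31 (261 genes), those of 3 to 5 kb -0.25 (567), those of 10 to 30 kb -0.13 (3818) and those over 100 kb 0.04 (2239). The members were at -0.35 (9 genes) up to 2 kb, -0.40 (22) at 2 to 3 kb, -0.47 (30) at 3 to 5 kb and -0.46 (12) at 5 to 10 kb. Other genes at 2 to 3 and at 5 to 10 kb stood at -0.27 (235) and -0.19 (1424). Thus the members lay closest to other genes in the shortest bin and further below them in each of the next 3. Excitatory-like nuclei gave members' medians of -0.41, -0.44, -0.49 and -0.50 in these 4 bins, where other genes had -0.35, -0.28, -0.25 and -0.19. The part of gene length in the members' ratios was not tested beyond this.

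**Figure D3:**
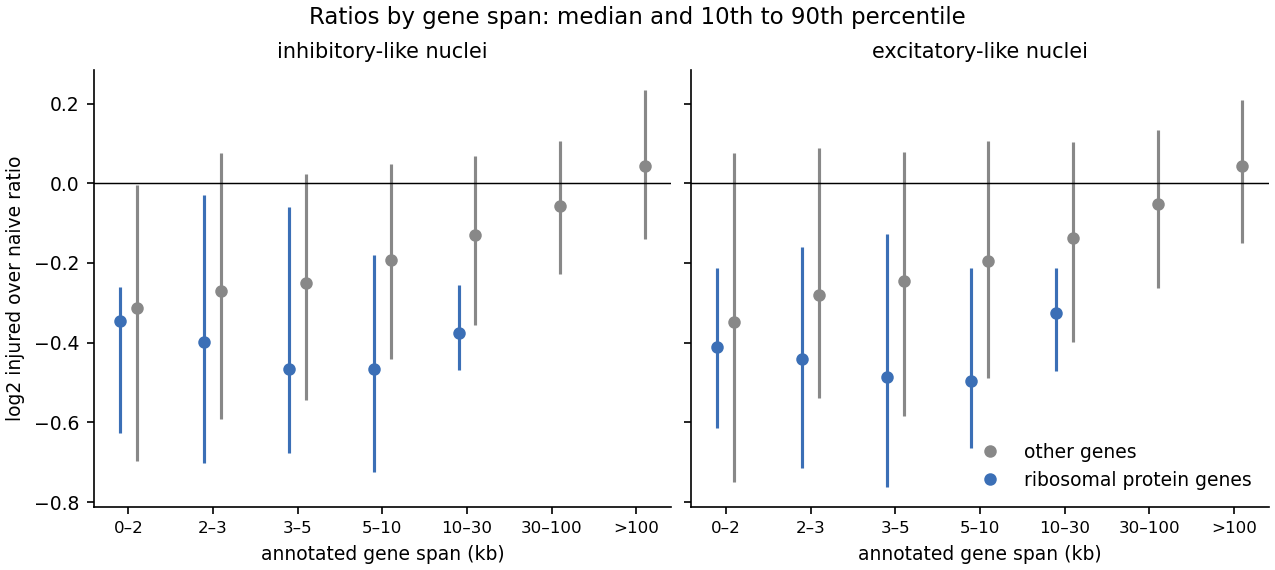
Median log2 injured over naive ratio (vertical axis) by annotated gene span in kb (horizontal axis) for ribosomal protein genes (blue) and all other genes with at least 100 UMIs (grey), in inhibitory-like (left) and excitatory-like nuclei (right). Bars run from the 10th to the 90th percentile over genes, and bins with fewer than 3 genes are left out. In both classes the grey medians climb from about -0.3 in the shortest genes to 0.04 in the longest, and the blue medians lie below them in every bin shown.

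The ribosomal protein share also ran with depth inside each library. Naive inhibitory-like nuclei with 3000 to 5000 UMIs held 0.251% and those with 10000 to 15000 UMIs 0.174%. The injured nuclei of the same windows held 0.191% and 0.134%. Compared within windows, the injured over naive ratio in inhibitory-like nuclei was 0.762 (0.700 to 0.829) at 3000 to 5000 UMIs, 0.804 (0.781 to 0.827) at 5000 to 7000, 0.772 (0.754 to 0.791) at 7000 to 10000, 0.772 (0.742 to 0.802) at 10000 to 15000 and 0.662 (0.617 to 0.711) above. Only under 3000 UMIs, with 32 naive and 14 injured nuclei, did the interval include 1 (0.967, 0.710 to 1.301). In excitatory-like nuclei the 5 windows over 3000 UMIs gave ratios from 0.739 to 0.809, all with intervals below 1. The share was lower in the injured library in each window over 3000 UMIs, and the pooled ratio of 0.729 was further from 1 than 4 of the 5 inhibitory-like windows. Nuclei of the same window need not be alike in 2 libraries of different depth. The part of depth in the ratios was not tested.

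**Figure D4:**
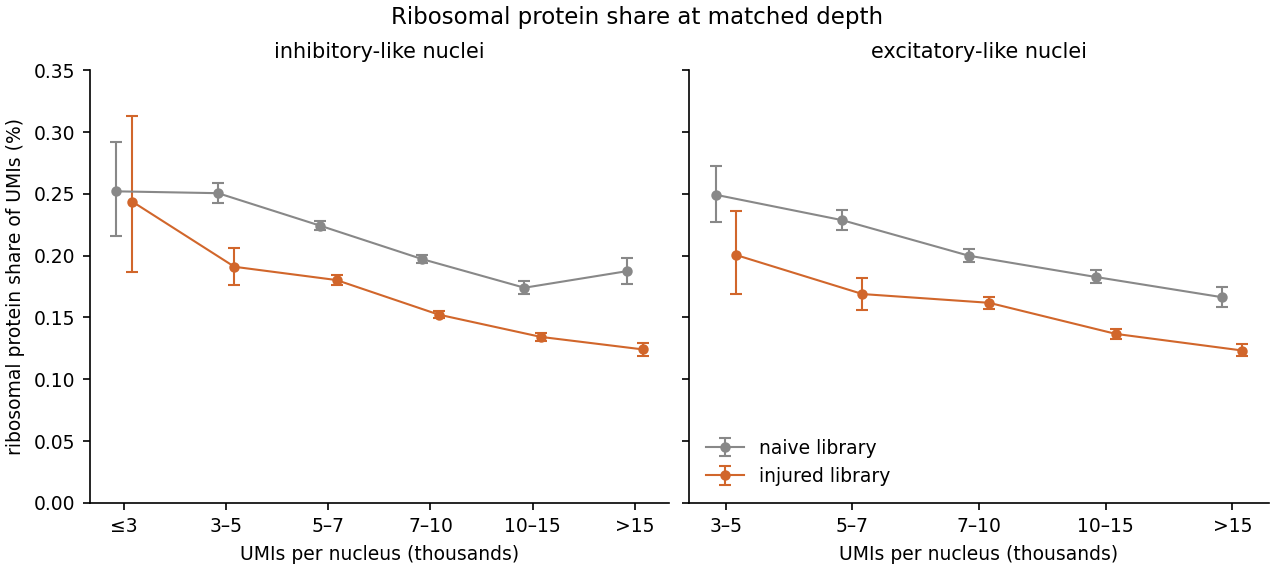
Ribosomal protein share of UMIs (%, vertical axis) in windows of UMIs per nucleus (horizontal axis) for naive (grey) and injured nuclei (orange), inhibitory-like on the left and excitatory-like on the right, with exact Poisson 95% intervals. Windows with fewer than 10 nuclei in a library are left out. The injured points lie below the naive ones at each depth over 3000 UMIs, and both lines go down with depth except at the deepest naive inhibitory-like window (0.187%).

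The same held cluster by cluster. In all 19 clusters with at least 50 nuclei in each library, of which 11 were inhibitory-like, 6 excitatory-like and 2 unnamed, the ratio and its interval were below 1. The ratios ran from 0.649 (0.612 to 0.688) in cluster 9, excitatory-like, to 0.848 (0.770 to 0.933) in cluster 22, also excitatory-like. The highest naive share was in cluster 4, inhibitory-like, at 0.232%, and its injured share was 0.178%. 11 genes were under 1 in each of the 17 named clusters, among them Rpl8, Rpl21, Rpl24, Rpl27a, Rpl39, Rpl41, Rps10, Rps24, Rps29 and Rpsa. Rpl10, Rpl12 and Rps27l were under 1 in 7 of the 17. How many of all genes were under 1 in each of these clusters was not counted.

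**Figure D5:**
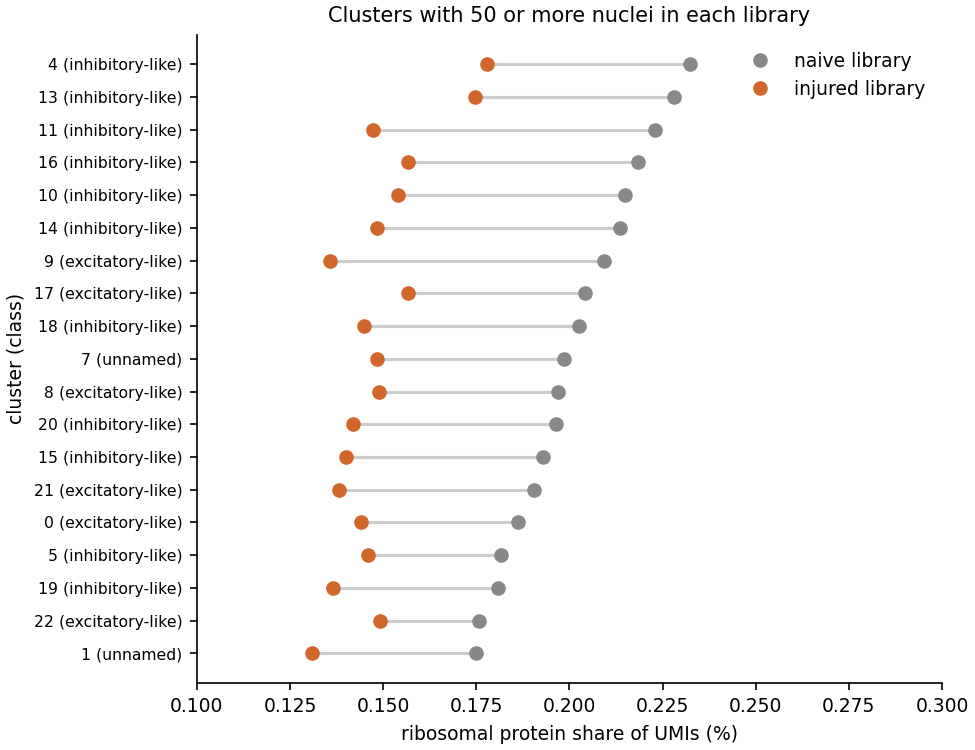
Ribosomal protein share of UMIs (%, horizontal axis, which starts at 0.1) in each cluster with at least 50 nuclei per library (rows, with the class in brackets), naive in grey and injured in orange. Each injured point lies to the left of its naive point, and the distance is shortest in cluster 22.

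Because both pools held females and males, nuclei could be split by Xist and Y-linked UMIs. In inhibitory-like nuclei with Xist and no Y-linked UMIs (1640 naive, 1375 injured) the summed ratio was 0.752, and in those with Y-linked and no Xist UMIs (750 and 688) it was 0.690. The members' median log2 ratios were -0.39 and -0.52, and 68 of 77 genes were under 1 in both sets. In excitatory-like nuclei the summed ratios were 0.727 (610 and 513 nuclei) and 0.720 (206 and 208), and 62 of 69 genes were under 1 in both. Both sets were drawn from the same pooled libraries, and the share of all genes under 1 in both sets was not counted.

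Other values moved with the groups as well. Median depth was 1.18 times the naive one in inhibitory-like and 1.24 times in excitatory-like nuclei. Mitochondrially encoded RNA, a sign of cytoplasm around nuclei, took 0.0100% and 0.00860% of inhibitory-like UMIs (ratio 0.860) and 0.00790% and 0.00716% of excitatory-like UMIs (ratio 0.906). RNAs held in the nucleus, such as Malat1 and Meg3, summed to 0.946 and 0.935 times the naive share. Oligodendrocyte markers (8 of 8 in the table, none at 0) summed to 86.5 and 82.3 CPM in naive and injured inhibitory-like nuclei and to 55.3 and 55.5 CPM in excitatory-like nuclei. Astrocyte markers (8 of 8, none at 0) summed to 64.2 and 67.5 CPM and to 110.3 and 120.5 CPM. Slc1a2 made up most of the inhibitory-like sums (44.5 and 41.1 CPM), and 2 of the 3 astrocyte markers with at least 100 UMIs there were called higher in the injured library, the highest at a log2 ratio of 1.05. Slc4a4 made up most of the excitatory-like sums (75.9 and 89.9 CPM). Oligodendrocyte precursor markers (6 in the table, of which Gpr17, Cspg4 or Olig2 was at 0 in some sums) went from 316.0 to 366.8 CPM in inhibitory-like and from 406.5 to 485.1 CPM in excitatory-like nuclei, almost all of it Lhfpl3. Endothelial markers (5 in the table, none at 0) stood at 8.70 and 8.83 CPM in inhibitory-like and at 17.6 and 11.8 CPM in excitatory-like nuclei. Only Pecam1 had at least 100 UMIs in inhibitory-like nuclei (5.91 and 4.39 CPM), and only Adgrl4 in excitatory-like nuclei (9.07 and 5.33 CPM). Each was called lower in that class. Microglia markers (6 in the table, with Tmem119 at 0 in both naive sums and with C1qa in the injured excitatory-like sum) summed to 75.8 and 69.9 CPM and to 110.7 and 101.4 CPM. The part of these in the ribosomal protein ratios was not tested.

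The other genes of the translation pathway were taken from fixed lists, to be read against the 7.52% and 8.02% of all genes called lower in inhibitory-like and excitatory-like nuclei and the medians over all genes of -0.09 and -0.08. Of 17 elongation factors and other genes with TOP messenger RNAs, 6 were called lower in each class and 0 higher, with median log2 ratios of -0.24 in inhibitory-like and -0.28 in excitatory-like nuclei. Eif3l, an initiation factor subunit, was the lowest of them in both (0.697 and 0.571), and Tpt1, a growth-related TOP gene, had 42.5 and 29.8 CPM in inhibitory-like nuclei, a ratio of 0.700 (0.627 to 0.780). Eef2, the translocation factor, had 25.1 and 15.8 CPM in excitatory-like nuclei, a ratio of 0.628 (0.502 to 0.784). At the other end stood Eif3k (1.05, 0.859 to 1.29) and Eif4b (0.956, 0.860 to 1.06) in inhibitory-like nuclei, and Pabpc1, the poly(A)-binding protein (1.06, 0.907 to 1.24), and Eef1g (0.987, 0.843 to 1.16) in excitatory-like nuclei.

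Among initiation and termination factors 6 of 36 were called lower in inhibitory-like nuclei (median -0.12) and 1 of 33 in excitatory-like nuclei (median -0.13), and 0 were called higher in either. With so few genes, these shares and medians are not set apart from those of all genes. Eif3g (0.598, 0.413 to 0.856) and Eif5a (0.674, 0.582 to 0.780) were lowest and Eif3j1 (1.15, 1.04 to 1.28) highest in inhibitory-like nuclei. Ribosome assembly factors and RNA polymerase I genes had 5 of 52 and 6 of 48 called lower and 0 higher, with medians of -0.10 and -0.13, shares and medians near those of all genes. Nop10, a short gene of the pseudouridine-adding particles, was the lowest in inhibitory-like nuclei, with 24.6 and 15.5 CPM, a ratio of 0.630 (0.542 to 0.731). The genes for the mitochondrial ribosome had 12 of 75 called lower in inhibitory-like and 12 of 72 in excitatory-like nuclei and 0 higher, with medians of -0.20 and -0.17. Their summed share was 0.871 and 0.898 times the naive one.

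Ribosomal genes whose symbols the rule did not catch were closer to the members. Of 7 with enough UMIs, 3 were called lower in inhibitory-like and 4 in excitatory-like nuclei, with medians of -0.34 and -0.40. Rps3a1 had 33.6 and 20.3 CPM in inhibitory-like nuclei (0.606, 0.533 to 0.689), and Rack1, listed under its older symbol Gnb2l1, had 21.6 and 14.96 CPM (0.691, 0.592 to 0.807). Rpl36al had 29.7 and 17.3 CPM in excitatory-like nuclei (0.582, 0.471 to 0.717). Fau, whose product is cut into a small-subunit protein, was above 1 in both classes (1.24, 0.971 to 1.58, and 1.14, 0.816 to 1.58). Symbols of ribosomal pseudogenes were lower still: 8 of 8 with enough UMIs were called lower in inhibitory-like nuclei (median -0.66) and 4 of 6 in excitatory-like nuclei (median -0.71). Rpl9-ps6 had 75.1 and 44.2 CPM in inhibitory-like nuclei, a ratio of 0.589 (0.540 to 0.642), while Rpl9 had 15.8 and 11.1 CPM, a ratio of 0.703 (0.586 to 0.842). Counts under these names cannot be told apart from counts of the parent genes.

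The next comparison asked how levels differ between the neuron classes. It could be tested, since each pool gave both classes: counts were summed to 4 sums of class and library, and edgeR's quasi-likelihood test with library as a replicate block was fitted over 16016 genes, with 1 residual degree of freedom. In excitatory-like nuclei 13 of 77 ribosomal protein genes were called lower (adjusted p under 0.05), where the background was 17.9% of all genes, and 0 were called higher, where it was 21.0%. Without an adjustment 18 were lower and 0 higher at p under 0.05. The share called lower was thus near the background. DESeq2 with the library as block called 0 of them in either direction, where the background was 6.98% lower and 8.26% higher. The edgeR test without the block also called 0, against 10.5% and 13.5%. In each of these 2 fits, 2 members were lower and 0 higher at an unadjusted p under 0.05. The median log2 difference was -0.10 over the members and 0.01 over all genes. Of the members, 38 were lower in excitatory-like nuclei in both libraries and 12 higher in both, counts that were not made over all genes.

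Rpl39 had the largest difference. It stood at 16.6 CPM in inhibitory-like and 11.7 CPM in excitatory-like nuclei of the naive library and at 10.2 and 7.19 CPM in the injured library, a log2 difference of -0.53 (SE 0.139, edgeR adjusted p = 0.000556). Rps3, a small-subunit protein at the messenger RNA entry that also has DNA repair activity, stood at 38.8 and 30.1 CPM in the naive and 25.6 and 20.2 CPM in the injured library, a log2 difference of -0.38 (SE 0.0863, edgeR adjusted p = 4.81e-05). Rpl41 stood at 80.4 and 66.1 CPM and at 57.9 and 48.1 CPM, a log2 difference of -0.30 (SE 0.0600, edgeR adjusted p = 3.28e-06). Rpl26, another tunnel-exit protein, differed by -0.36 (SE 0.0955, edgeR adjusted p = 0.000702). In each of these 4 genes the excitatory-like level was the lower one in both libraries. None passed in the 2 alternative fits. For Rpl39, Rps3, Rpl41 and Rpl26 the DESeq2 adjusted p was 0.285, 0.180, 0.0911 and 0.296. The edgeR adjusted p without the replicate block was 0.139, 0.166, 0.158 and 0.129.

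Rpl37 (-0.29), Rpl27 (-0.28) and Rpl36a (-0.49) did not pass the threshold, with edgeR adjusted p of 0.0894, 0.496 and 0.215. For Rpl36a the libraries pointed in opposite directions, with log2 differences of -0.95 (naive) and 0.09 (injured). Further genes called lower were Rps29, Rps14, Rpl32, Rps4x, Rpl8, Rpl36, Rpl3 and Rpl27a. The highest estimates were at Rps27l (0.23), Rpl23a (0.22), Rps15a (0.20), Rpl34 (0.17), Rplp2 (0.16), Rpl12 (0.15), Rpl9 (0.13) and Rps27 (0.12), and none passed, the smallest edgeR adjusted p among them being 0.116, for Rps15a. Rpl34 and Rps27l were higher in excitatory-like nuclei in the naive library and lower in the injured library.

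The glia-like and CSF-contacting classes held too few UMIs for most single genes. The CSF-contacting class summed 563361 naive and 318372 injured UMIs over all genes, and the astrocyte-like class 165357 and 257147. In CSF-contacting neuron-like nuclei, Rps29 had 60 naive and 15 injured UMIs, and Rpl8 had 53 and 18. In astrocyte-like nuclei Rpl41 had 30 and 20 UMIs and Rps3 22 and 10, while Rps29 had 9 and 21. The summed share in naive astrocyte-like nuclei (0.307% to 0.363%) lay above the interval in naive inhibitory-like nuclei, but these classes were also shallower, and the share ran with depth.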

How the data were processed

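The authors deposited whole-number UMI counts per gene and nucleus and, per library, natural log values. On the files the latter equal ln(1 + 10000 × count / total) to within 6e-15. Cell Ranger 3.0.2, Seurat and the mm10 build are named per the submitters' processing notes. Annotation, intron counting and nucleus filtering are not stated by the labels or headers. In the table every gene was seen in 4 nuclei or more, and 514 was the smallest number of genes in a nucleus.

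Nuclei were assigned to libraries by barcode and clustered with scanpy 1.11.5 (2000 variable genes, 30 components, 15 neighbours, Leiden resolution 1), leaving out 289 genes, among them all ribosomal ones. Classes were named from marker lists. Scrublet called 2.61% of naive but 0.197% of injured nuclei and was treated as not having worked in the injured library. Doublets were thus kept, and nuclei with Xist and Y-linked UMIs were left out as an alternative. For the ratios, leaving out the nuclei that Scrublet called was a further alternative. Ratios used the class total and exact conditional binomial intervals, and levels exact Poisson intervals. Classes were compared with edgeR 4.0.16 (TMM, filterByExpr, Benjamini-Hochberg over all genes tested) and DESeq2 1.42.0 as an alternative. The ratio intervals and edgeR, but not DESeq2, were run on simulated data. The simulated ratios held counting error only, and the simulated class sums a spread set in advance. These runs thus do not show how either procedure works at the spread of real libraries. The library as a replicate block comes from the design, since both classes were taken from each pool.

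The genes named were the 12 lowest and 12 highest ratios in the inhibitory-like class, the 6 lowest and 6 highest in the excitatory-like class, the 8 largest differences in each direction between classes, all stalk, paralog, X-linked and scarce members, and up to 2 lowest and 2 highest of each other list. Rps6, Rpl5, Rpl11, Rpl6, Rpl41, Rpl3 and the genes of the small classes were named after their values were seen, as were the 8 sequences. Values of 3 single members are not reported here, though they are in the counts, sums and medians. The members and lists were chosen with earlier results of these data known. A count of 0 allows up to 3 UMIs, which over all nuclei is 0.0980 CPM (naive) or 0.0911 CPM (injured).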

Additional observations from a re-analysis of the deposited data

Results flagged for a closer look

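With 1 library in each group, no library could be set apart from others of its group. Of the 69 ribosomal protein genes with at least 100 UMIs in both neuron classes, 3 pointed in opposite directions in the 2 classes. The injured over naive ratio of Rpl23a was 0.920 in inhibitory-like and 1.10 in excitatory-like nuclei. That of Rplp2 was 0.864 and 1.01. That of Rps2 was 1.06 and 0.713. All 6 counting intervals include 1, each pair of intervals overlaps, and the difference between classes was not tested.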

How the results depend on the processing

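All medians kept their sign under every alternative run. On the log2 scale the members' median ratio ran from -0.54 to -0.36 in inhibitory-like and from -0.50 to -0.35 in excitatory-like nuclei, and 0 members were called higher in any. Scaling by TMM brought the median of all inhibitory-like genes from -0.09 to -0.01 and the members to -0.36 (-0.37 in excitatory-like nuclei). Members called lower in excitatory-like nuclei were 30 of 69 with TMM (4.5% of all genes) and 29 of 69 with DESeq2 size factors (3.91%). With at least 500 UMIs they were 11 of 17 (3.16%), and among Y-marked, Xist-negative nuclei 14 of 27 (8.07%). Fewer genes passed in these last 2 settings, and all members were under 1 (17 of 17 and 27 of 27), with all genes under 1 not counted. TMM left 36 of 77 called in inhibitory-like nuclei (4.16% of all genes). Past 1.5-fold, a limit chosen after seeing the data, 19 and 24 were called (2.2% and 2.51% of all genes). Rplp1 turned to a log2 ratio of 0.0401 in Y-marked, Xist-negative excitatory-like nuclei. The mean deposited natural log value was lower in the injured library for 69 of 77 and 67 of 69 members, and all genes were not counted in this way. The summed share was 0.215% and 0.158% in inhibitory-like and 0.204% and 0.149% in excitatory-like nuclei as a mean over nuclei, and 0.205%, 0.154% and 0.148% (injured excitatory-like) at 5000 to 15000 UMIs.

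Between classes, members called lower were 0 without the replicate block (10.5% of all genes), where 2 were lower at an unadjusted p under 0.05. They were 0 with DESeq2 (6.98% of all genes, 2 members likewise), and 7 of 77 at 5000 to 15000 UMIs (16.9% of all genes). The median difference was -0.12 with DESeq2, -0.11 with DESeq2 size factors and without the filter, -0.0900 with nuclei classed by their own transmitter genes, -0.0870 at 5000 to 15000 UMIs, -0.13 without nuclei with Xist and Y-linked UMIs, and between -0.0844 and -0.0725 with 1 library left out. The cause of these moves was not tested. No paired analysis was possible for injured against naive because each group is 1 library.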
